A study of Mus musculus with 18 samples.

Results

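Peroxidases and the antioxidant enzymes around them are described here by 10 genes, Gpx1, Gpx3, Gpx4, Prdx1, Prdx2, Prdx5, Sod1, Txn1, Cat and Ltc4s, out of 27297 gene rows of a table of mouse microglia development. Each gene was taken from the row that carries its symbol, which for Gpx4 was a row that also lists the spelling GPx4. All 10 were found, 9 of them had enough counts to be tested, and Prdx1 did not. The data are MARS-seq libraries, in which single sorted cells are placed in the wells of a plate and the 3′ ends of their polyadenylated transcripts are counted by unique molecular identifiers (UMIs). All cells came from untreated C57BL/6J mice that carry the CX3CR1-GFP reporter, which labels microglia and their myeloid relatives with green fluorescent protein. The groups were yolk sac at embryonic day 12.5 (E12.5) with 4 libraries and 671 cells, brain at E12.5 with 4 libraries and 718 cells, brain at E18.5 with 6 libraries and 992 cells, and adult brain with 4 libraries and 631 cells. At E12.5 both tissues were sorted as CD45+CD11B+CX3CR1-GFP+ cells, and the later brains through a gate of intermediate CD45 and CD11B with CX3CR1-GFP+. The 2 gates therefore differ along with age. The reporter and the gates do not separate microglia from other CX3CR1-expressing myeloid cells.

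Reactive oxygen species are formed by mitochondria and by the NADPH oxidase of phagocytes. Superoxide dismutases turn superoxide into hydrogen peroxide, which is then reduced by glutathione peroxidases, by peroxiredoxins that draw on thioredoxin, and by catalase in the peroxisome. Several of these genes are known targets of NRF2, a factor that binds antioxidant response elements. Ltc4s encodes leukotriene C4 synthase, a membrane enzyme that joins glutathione to a leukotriene and is a relative of the microsomal glutathione transferases rather than a peroxidase of the classical families.

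Promoter windows, 250 bases before to 50 bases after the start of the gene, were available from RefSeq on build GRCm38.p6 for 10 of 10 genes. Both strands were searched for the core of the antioxidant response element, TGACNNNGC, and for the AP-1 site, TGANTCA, motifs that can share bases with each other. The first was in 12.4% and the second in 7.81% of 32851 windows. Counted per gene, with any window of the gene, the shares were 14.0% and 8.97% of 27025 genes. Among the 10 genes the element core was found in Sod1 and Prdx1. The Sod1 window (chr16:90220512-90220811, plus strand) holds it on the opposite strand 56 bases before the start, and the Prdx1 window (chr4:116685349-116685648, plus strand) holds it on the opposite strand 133 bases before the start, overlapping an AP-1 site, with a further AP-1 site 237 bases before the start. The Sod1 and Prdx1 windows are shown because they hold the motif, and those of Gpx3 (chr11:54902604-54902903, plus strand) and Ltc4s (chr11:50238483-50238782, minus strand) because these genes differed most between stages. Capitals mark motif matches, and the Gpx3 and Ltc4s windows have none.
Sod1: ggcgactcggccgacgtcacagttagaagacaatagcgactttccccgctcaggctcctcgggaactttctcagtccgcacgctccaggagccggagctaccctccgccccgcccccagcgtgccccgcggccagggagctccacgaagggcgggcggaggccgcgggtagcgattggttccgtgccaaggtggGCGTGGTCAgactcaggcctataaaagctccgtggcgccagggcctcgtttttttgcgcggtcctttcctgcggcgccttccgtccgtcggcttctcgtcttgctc
Prdx1: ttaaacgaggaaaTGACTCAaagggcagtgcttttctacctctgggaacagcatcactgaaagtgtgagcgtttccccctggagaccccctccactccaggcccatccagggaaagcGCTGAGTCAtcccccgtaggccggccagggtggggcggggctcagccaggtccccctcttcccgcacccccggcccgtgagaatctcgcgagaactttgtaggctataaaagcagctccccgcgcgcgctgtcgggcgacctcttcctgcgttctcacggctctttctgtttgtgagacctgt
Gpx3: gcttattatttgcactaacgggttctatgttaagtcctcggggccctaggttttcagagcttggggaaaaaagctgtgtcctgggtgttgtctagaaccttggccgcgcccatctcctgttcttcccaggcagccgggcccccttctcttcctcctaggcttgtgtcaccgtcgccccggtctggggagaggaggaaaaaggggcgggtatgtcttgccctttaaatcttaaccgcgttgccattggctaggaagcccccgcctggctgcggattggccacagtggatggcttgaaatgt
Ltc4s: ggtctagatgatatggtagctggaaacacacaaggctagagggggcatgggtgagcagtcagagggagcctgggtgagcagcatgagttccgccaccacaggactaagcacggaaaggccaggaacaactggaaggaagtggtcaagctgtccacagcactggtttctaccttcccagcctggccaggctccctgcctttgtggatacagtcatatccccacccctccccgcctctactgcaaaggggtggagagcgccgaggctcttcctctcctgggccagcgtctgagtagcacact

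The libraries held 143876 to 217647 UMIs at E18.5 and 74562 to 99494 in adult brain, against 269698 to 309084 in yolk sac and 228467 to 534219 in E12.5 brain. Levels are given as CPM, a gene's UMIs scaled to a library total of 1000000, so that a value is a share of the RNA and not an amount per cell. Fewer cells of a type and less RNA per cell cannot be told apart in such sums. Summed over 8 microglia markers, libraries lay between 1120 and 1447 CPM for yolk sac, between 7021 and 7456 CPM for E12.5 brain, between 17825 and 18544 CPM at E18.5 and between 32253 and 34329 CPM for adult brain, and the yolk sac cells were thus low in them. All 8 were detected in every group. The neuron markers were at 0 in yolk sac and adult, but at 22.5 to 81.4 CPM in E12.5 brain and 5.31 to 36.8 CPM at E18.5. Astrocyte and radial glia markers, 1 of 4 detected, were at 111 to 187 CPM in adult libraries and at 0 in both E12.5 tissues. Monocyte markers reached 1870 CPM in 1 adult library. Sequencing batches overlapped the groups only in part. Yolk sac replicates 1 and 2 shared a batch with E12.5 brain replicates 3 and 4, and yolk sac replicates 3 and 4 shared another with all E18.5 and adult libraries, while no batch held brain cells of E12.5 together with later brain cells. Each sequenced age has 1 subject number, and nothing says that libraries of a group came from separate animals, so p-values measure the spread between libraries, which may be technical. Replicates 1 and 2 of each group shared a plate, as did replicates 3 and 4, and 5 and 6 at E18.5. At E12.5 the chi-square per degree of freedom between libraries of a group was at most 1.97 within plates and at least 3.44 across them. The plates of a group differed in batch there. The ranges overlapped at E18.5 (up to 2.08 and from 1.73) and in adult brain (up to 2.02 and from 1.91). SDs and p-values nonetheless treat libraries of a plate as independent. The 36 empty wells held 1 UMI each of Gpx1, Prdx1 and Prdx5 and 0 of the other 7 genes.

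Most of these enzymes made up a smaller share of the RNA at later stages, and Ltc4s a larger one. The 10 genes together took 6304 ± 953 CPM in yolk sac, 6458 ± 277 CPM in E12.5 brain, 4637 ± 294 CPM in E18.5 brain and 2572 ± 294 CPM in adult brain (SD, n = 4, 4, 6 and 4 libraries). Gpx1 held 44.1% of their UMIs in yolk sac, 52.3% in E12.5 brain, 37.8% in E18.5 brain and 26.0% in adult brain. Each gene's own level in every library is plotted next to its group mean.

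**Figure D1:**
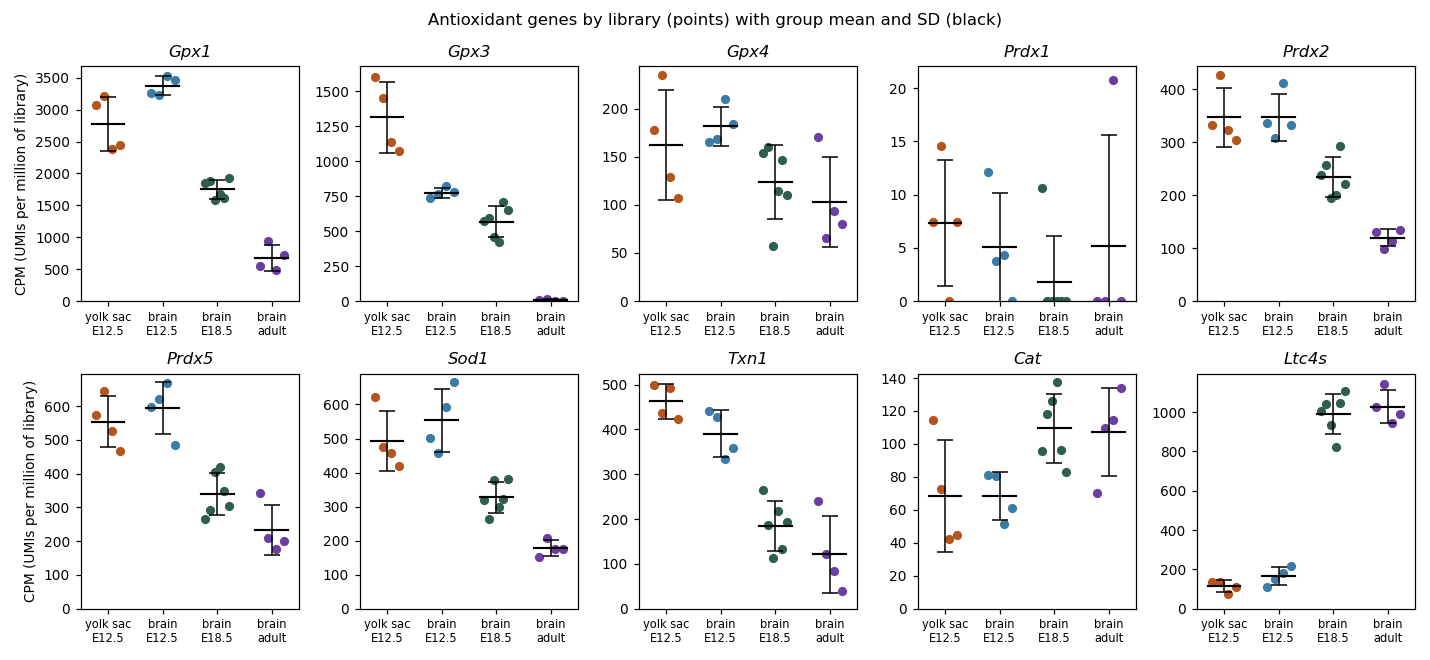
Level of each of the 10 genes in CPM (y axis, linear, from 0, with its own scale in each panel) in the libraries of yolk sac E12.5, brain E12.5, brain E18.5 and adult brain (x axis); points are libraries, black bars the mean and SD of 4, 4, 6 and 4 libraries. Gpx1, Gpx3, Gpx4, Prdx2, Prdx5, Sod1 and Txn1 have lower group means at each later brain stage, and Ltc4s is near 1000 CPM in E18.5 and adult libraries.

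Gpx1, the abundant cytosolic glutathione peroxidase and a selenoprotein, had 3075, 3211, 2388 and 2440 CPM in the 4 yolk sac libraries and 3269, 3235, 3535 and 3467 CPM in the E12.5 brain libraries. At E18.5 its lowest, median and highest libraries held 1578, 1761 and 1931 CPM. The adult libraries held 553, 934, 488 and 724 CPM. In brain the 3 stages did not overlap, each later stage lying wholly below the one before. Gpx1 fell by 0.95 on the log2 scale at E18.5 against E12.5 brain (SE 0.14, edgeR adjusted p = 1.13e-06). In adult against E18.5 brain it fell by 1.35 (SE 0.16, edgeR adjusted p = 1.50e-08). Adult against E12.5 brain, the fall was 2.30 (SE 0.17, edgeR adjusted p = 1.49e-14), a ratio of means of 5.00. The yolk sac libraries lay just below the E12.5 brain libraries without overlap, but this difference did not pass the test (log2 −0.25, SE 0.15, edgeR adjusted p = 0.328).

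Gpx3, the secreted glutathione peroxidase best known from plasma, was the gene that differed between the E12.5 tissues. It had 1602, 1455, 1136 and 1072 CPM in yolk sac, against 734, 766, 823 and 779 CPM in E12.5 brain. At E18.5 the lowest, median and highest libraries held 424, 582 and 708 CPM. In adult brain it was almost absent from the counts, with 1 UMI in each of 2 libraries and 0 in the other 2, 2 UMIs over 631 cells against 612 UMIs over 992 cells at E18.5. No groups overlapped in any of these steps.

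Yolk sac exceeded E12.5 brain by 0.80 on the log2 scale for Gpx3 (SE 0.17, edgeR adjusted p = 0.000462, higher in 4 of 4 yolk sac libraries than in any E12.5 brain library). In the sequencing batch that both tissues share, with 2 libraries each, the log2 ratio of mean CPM was 0.93. With batch as a covariate it was 0.92 (edgeR adjusted p = 0.000163). That contrast rests on the same libraries, because no other batch held both tissues. They are 1 plate of each tissue, so its p does not cover differences between plates. With counts summed per plate, 2 plates against 2, the log2 difference was 0.84 and its adjusted p was 0.0544. Yolk sac libraries held 222 to 5164 CPM of erythroid markers (10 of 11 detected), against 16.8 to 219 CPM in E12.5 brain (8 of 11 detected), and without the cells in which erythroid and granulocyte precursor markers reached 1% of UMIs the Gpx3 difference was 0.82.

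The step at E18.5 was small for Gpx3, a fall of 0.46 (SE 0.16, edgeR adjusted p = 0.0311), and it passed in 10 of the 20 alternatives run. It was lost with counts summed per plate. It was also lost without E12.5 brain replicate 3 or 4, or without E18.5 replicate 1, 2, 3 or 4, where the edgeR adjusted p reached 0.150. With batch as a covariate the change was −0.07 (edgeR adjusted p = 0.926). The adult step passed under all 20 alternatives run. The share of Gpx3 in E18.5 libraries was 104 times that in adult libraries from the summed counts, with an exact 95% interval of 28.7 to 860 that covers counting error only. For E12.5 brain over adult it was 138 times, with an interval of 38.2 to 1144.

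Ltc4s moved the other way. It had 137, 138, 74.4 and 111 CPM in yolk sac and 111, 150, 180 and 219 CPM in E12.5 brain, which overlap. The lowest, median and highest E18.5 libraries held 820, 1023 and 1106 CPM, and the adult libraries 1025, 1143, 946 and 992 CPM. E18.5 and adult libraries overlapped each other and lay wholly above all E12.5 libraries. Ltc4s rose by 2.61 on the log2 scale at E18.5 against E12.5 brain (SE 0.19, edgeR adjusted p = 2.54e-14), with a ratio of means of 6.02. In adult against E18.5 brain the change was 0.08 (SE 0.17, edgeR adjusted p = 0.788). With each cell thinned to 300 UMIs, a Ltc4s UMI was found in 25.9% of E18.5 cells and 25.0% of adult cells, against 4.74% of E12.5 brain cells and 3.58% of yolk sac cells. Without thinning these shares were 57.7%, 39.5%, 23.5% and 14.9%, in which the deeper E18.5 cells exceed the adult cells. The difference between yolk sac and E12.5 brain was −0.45 (SE 0.21, edgeR adjusted p = 0.161), and it passed only without E12.5 brain replicate 1, at −0.62.

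Sod1 encodes the copper-zinc superoxide dismutase of the cytosol. It had 622, 475, 456 and 419 CPM in yolk sac and 502, 459, 591 and 665 CPM in E12.5 brain, which overlap. The lowest, median and highest E18.5 libraries held 264, 320 and 382 CPM, and the adult libraries 151, 209, 177 and 174 CPM. The brain stages did not overlap. Sod1 fell by 0.76 at E18.5 against E12.5 brain (SE 0.17, edgeR adjusted p = 0.000614) and by 0.85 in adult against E18.5 brain (SE 0.21, edgeR adjusted p = 0.00277). Within its last 300 bases, 228 aligned bases matched the pseudogene Gm8566 at 97.8% identity, so that a part of its counts may not be assignable with certainty. Gm8566 has no row of its own, and whether its reads were counted as Sod1 was not tested.

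The peroxiredoxins reduce peroxides with electrons from thioredoxin. Prdx2, a cytosolic member abundant in red blood cells, averaged 347 ± 55.3 CPM in yolk sac, 347 ± 44.4 CPM in E12.5 brain, 235 ± 37.2 CPM in E18.5 brain and 119 ± 16.2 CPM in adult brain. The 2 tissues at E12.5 overlapped and the brain stages did not. Prdx2 fell by 0.57 at E18.5 against E12.5 brain (SE 0.17, edgeR adjusted p = 0.0141) and by 0.94 in adult against E18.5 brain (SE 0.23, edgeR adjusted p = 0.00240). The E18.5 step passed in 15 of 20 alternatives. The losses included the fit with counts summed per plate and the fit with batch as a covariate. It was also lost without E12.5 brain replicate 3 or E18.5 replicate 4. The levels in yolk sac and E12.5 brain were close, and without the marker-rich cells the difference was −0.03. Erythroid markers were higher in yolk sac than in E12.5 brain, and reached 3070 CPM in E18.5 replicate 6. The part of red blood cell RNA in the Prdx2 counts was not tested.

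Prdx5, the peroxiredoxin that is found in mitochondria and peroxisomes as well as in the cytosol, had 574, 646, 527 and 467 CPM in yolk sac and 599, 621, 668 and 486 CPM in E12.5 brain. The lowest, median and highest E18.5 libraries held 266, 327 and 419 CPM, and the adult libraries 342, 209, 177 and 201 CPM. E18.5 lay wholly below E12.5 brain, and adult replicate 1 lay among the E18.5 libraries while the other adult libraries were below them. Prdx5 fell by 0.82 at E18.5 against E12.5 brain (SE 0.17, edgeR adjusted p = 0.000319). The adult step was −0.50 (SE 0.21, edgeR adjusted p = 0.0767) and passed without adult replicate 1, at −0.79.

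Txn1, the cytosolic thioredoxin that recharges peroxiredoxins, had 500, 435, 492 and 423 CPM in yolk sac and 441, 429, 334 and 359 CPM in E12.5 brain, which overlap. The lowest, median and highest E18.5 libraries held 114, 191 and 266 CPM, and the adult libraries 241, 121, 83.1 and 40.2 CPM. E18.5 lay below E12.5 brain without overlap, and the adult libraries spread over the E18.5 range and beneath it. Txn1 fell by 1.08 at E18.5 against E12.5 brain (SE 0.22, edgeR adjusted p = 0.000293). In adult against E18.5 brain the change was −0.53 (SE 0.29, edgeR adjusted p = 0.205), and without adult replicate 1 it was −1.14 and passed.

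Prdx1, the most studied cytosolic peroxiredoxin and a known NRF2 target, had only 21 UMIs in the 3012 cells, 8 in yolk sac, 9 in E12.5 brain, 2 at E18.5 and 2 in adult brain. No test was made and no order is read from these counts. No transcript of another gene matched the last 300 bases of Prdx1 at 95% identity or more, and the reason for its low count was not tested.

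Gpx4, the peroxidase that acts on lipid peroxides in membranes and protects cells from ferroptosis, did not pass in any of the 4 comparisons. It averaged 163 ± 56.9 CPM in yolk sac, 182 ± 20.2 CPM in E12.5 brain, 124 ± 38.7 CPM in E18.5 brain and 103 ± 46.8 CPM in adult brain. Its E18.5 libraries all lay below the E12.5 brain libraries, but the difference did not pass (log2 −0.55, SE 0.25, edgeR adjusted p = 0.106). Adult against E12.5 brain gave −0.76 (SE 0.32, edgeR adjusted p = 0.0556), and −1.18 without adult replicate 1, which passed. The last 300 bases of Gpx4 also occur in Gpx4-ps2 at 99.7% identity, so its counts are uncertain.

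Cat, the peroxisomal catalase, had 115, 72.6, 42.1 and 44.5 CPM in yolk sac and 80.9, 80.5, 51.4 and 61.3 CPM in E12.5 brain, which overlap. The lowest, median and highest E18.5 libraries held 83.0, 107 and 138 CPM, and the adult libraries 70.4, 110, 114 and 134 CPM. The E18.5 libraries lay just above the E12.5 brain libraries, and the adult libraries overlapped both. The log2 difference of E18.5 against E12.5 brain was 0.63 (SE 0.28, edgeR adjusted p = 0.0984). It passed in a fit of these groups alone, at 0.69, and with batch as a covariate, at 2.00. The batch offset in the latter came from yolk sac alone, with 115 and 72.6 CPM in 1 batch and 42.1 and 44.5 CPM in the other. Cat had 338 UMIs in all kept cells, the fewest of the tested genes.

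Counted together, 1 of 9 tested genes was called in yolk sac against E12.5 brain (Gpx3, higher), where 15.9% of 4883 tested genes were called in either direction, 7.04% as higher and 8.81% as lower. At E18.5 against E12.5 brain 1 rose and 6 fell, where 24.5% of all genes were called, 11.1% as higher and 13.4% as lower. In adult against E18.5 brain 0 rose and 4 fell, where 21.5% of all genes were called, 10.3% as higher and 11.2% as lower. In adult against E12.5 brain 1 rose and 6 fell, where 38.6% were called, 17.8% as higher and 20.7% as lower. No member was higher in adult against E18.5 brain at an unadjusted p under 0.05 by edgeR either (0 of 9), and DESeq2 called 0 as higher. Libraries of E18.5 and E12.5 brain did not overlap for 9 of the 9 tested genes, where 18.7% of all genes had no overlap. The count was 2 of 9 in yolk sac against E12.5 brain, 4 of 9 in adult against E18.5 brain and 7 of 9 in adult against E12.5 brain, where 19.9%, 16.8% and 34.3% of all genes had no overlap. The median log2 change of the 9 genes was −0.57 at E18.5 against E12.5 brain, −0.53 in adult against E18.5 brain and −1.51 in adult against E12.5 brain, while the median over all tested genes was −0.03, −0.03 and −0.07. Of these 3 comparisons the first and the third share the E12.5 brain libraries, the first and the second the E18.5 libraries and the second and the third the adult libraries, so that the values are not independent of each other.

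The comparison of E18.5 with E12.5 brain is also one between sequencing batches. The offset between the E18.5 batch and an E12.5 brain batch was estimated from yolk sac alone, the only group present in both. With batch as a covariate, 3 members and 332 genes in all passed in E18.5 against E12.5 brain, Ltc4s (2.84) and Cat (2.00) higher and Gpx1 (−0.66) lower. The other members called without the covariate did not pass, with log2 changes of −0.07 for Gpx3, −0.43 for Prdx2, −0.52 for Prdx5, −0.66 for Sod1 and −0.92 for Txn1, against −0.46, −0.57, −0.82, −0.76 and −1.08 without it. The adult and E18.5 libraries share 1 batch, and in that comparison the same fit called 5 members, adding Prdx5, and 1240 genes in all, against 4 members and 1050 genes without the covariate. The summed CPM of 6 granulocyte precursor markers was 2495 to 9439 in adult libraries, 230 to 1267 at E18.5 and 78.9 to 158 in E12.5 brain, with S100a8 and S100a9 at 0 in the adult. Without the cells in which these and the erythroid markers reached 1% of UMIs, 88 of them adult, 5 members and 985 genes in all were called in adult against E18.5 brain, and 7 members and 1841 genes in adult against E12.5 brain. Yolk sac replicates 3 and 4, of that batch too, had 2388 and 2440 CPM of Gpx1, against a mean of 3143 CPM in replicates 1 and 2 of another batch. All 4 lay above every E18.5 and adult library, but they are of another tissue and gate. The part of batch in the Gpx1 fall was not tested.

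**Figure D2:**
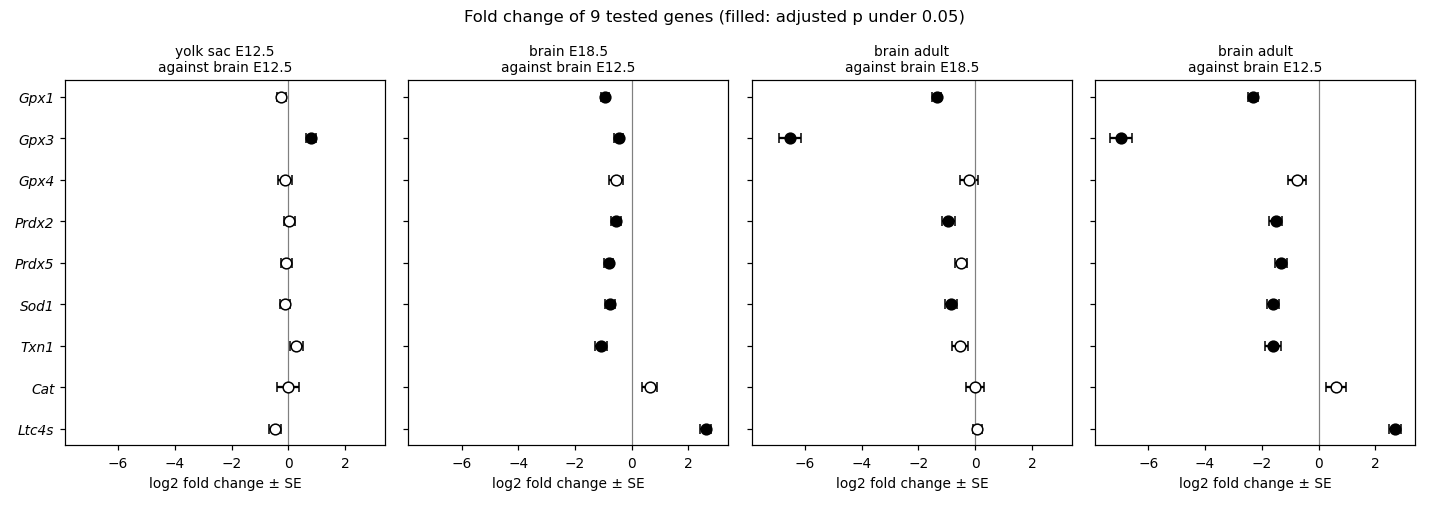
Log2 fold change (x axis, points, with bars of 1 SE) of the 9 tested genes (y axis) in 4 comparisons, each in its own panel, with the first-named group above 0 where it is higher; filled points passed at an edgeR adjusted p under 0.05. Gpx3 alone is filled in yolk sac against E12.5 brain, and the adult values of Gpx3 are fitted values that rest on 2 UMIs.

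The order of the groups for each gene also rests on the comparisons of later brain with yolk sac. In E18.5 brain against yolk sac 1 of 9 tested genes rose and 6 fell, where 37.0% of all genes were called, 18.2% as higher and 18.8% as lower. In adult brain against yolk sac 1 rose and 6 fell, where 44.7% were called, 21.6% as higher and 23.1% as lower. Groups without overlap were found for 7 of 9 genes in each of these comparisons, where 26.2% and 39.8% of all genes had none. From high to low, Gpx1 and Sod1 ran E12.5 brain, yolk sac, E18.5 brain and adult brain, with the first pair not distinguished by the test and the later steps called. Gpx3 ran yolk sac, E12.5 brain, E18.5 brain and adult brain, with each step called. Prdx2 had the same order, with yolk sac and E12.5 brain not distinguished. Prdx5, from E12.5 brain over yolk sac to E18.5 and adult brain, and Txn1, from yolk sac over E12.5 brain to E18.5 and adult brain, were called only between the E12.5 and later groups. For Ltc4s adult and E18.5 brain stood first and were not distinguished, followed by E12.5 brain and yolk sac, which were not distinguished either. For Gpx4 and Cat no neighbours in the order were distinguished.

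Within the yolk sac libraries the genes differed between cells classed by transcripts of complement C1q, which macrophages make. The class was set after thinning each cell to the same number of UMIs. Of the 671 thinned cells, 618 had at least 1 UMI of C1qa, C1qb or C1qc and 53 had none, with 84 at exactly 1 UMI. A C1q-negative cell may therefore hold C1q UMIs among its full counts. Counts were summed per class and library and compared within libraries, and 6 of 8 tested genes were called, 3 higher and 3 lower in C1q-positive cells, where 14.1% of 2676 genes were called, 8.30% as higher and 5.75% as lower. Gpx3 averaged 1431 ± 293 CPM in C1q-positive cells, against 552 ± 229 CPM in C1q-negative cells (log2 1.45, SE 0.23, edgeR adjusted p = 4.59e-05). Prdx5 averaged 590 ± 95.6 CPM, against 310 ± 69.0 CPM (log2 0.99, SE 0.26, edgeR adjusted p = 0.00895). Both were higher in 4 of 4 libraries. Ltc4s had 124 UMIs in C1q-positive cells and 4 in C1q-negative cells, a fitted log2 difference of 2.24 (SE 0.69, edgeR adjusted p = 0.0274).

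Gpx1 was lower in the C1q-positive yolk sac cells, 2548 ± 417 CPM, against 4376 ± 480 CPM in C1q-negative cells (log2 −0.72, SE 0.14, edgeR adjusted p = 0.000896), and so were Sod1, 440 ± 79.5 CPM against 852 ± 190 CPM (edgeR adjusted p = 0.00607), and Txn1, 425 ± 24.1 CPM against 717 ± 183 CPM (edgeR adjusted p = 0.0451). All 3 were lower in 4 of 4 libraries. Gpx4 (0.05) and Prdx2 (−0.51) did not pass, and Cat, with 6 UMIs in C1q-negative cells, was not tested. The classes differed in more than C1q. The summed erythroid markers were 183 to 1787 CPM in C1q-positive cells, against 446 to 27500 CPM in C1q-negative cells, and granulocyte precursor markers 170 to 1424 CPM, against 1452 to 2499 CPM. Without the 16 cells over the marker limit of 1% of UMIs, the count of called genes was again 6, with Gpx3 at 1.72 and Gpx1 at −0.68. The median depth was 1463 UMIs in C1q-positive and 2159 UMIs in C1q-negative cells. The Gpx3 call held under all 9 alternatives run, whereas Prdx5 and Ltc4s were lost without yolk sac replicate 1 or 2, Sod1 without replicate 1 or 4 and Txn1 without replicate 1, 3 or 4. Without replicate 1 the count was 2, and with no filter on low counts Gpx1, Sod1 and Txn1 were lost. DESeq2 called 4, without Txn1 and Ltc4s.

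Cells in division were compared with the other cells of the same libraries, where a cycling cell had at least 2 UMIs of cell-cycle genes after thinning to 300 UMIs. There were 125 such cells in yolk sac, 192 in E12.5 brain and 171 at E18.5, while 222, 302 and 330 cells lay at 1 or 2 UMIs, next to the threshold. In yolk sac Gpx3 averaged 800 ± 184 CPM in cycling cells, against 1456 ± 302 CPM in the others (log2 −0.91, SE 0.16, edgeR adjusted p = 1.65e-05, lower in 4 of 4 libraries). It was the only member called of 8 tested there, where 11.4% of 2693 genes were called, 5.50% as higher and 5.94% as lower. C1q-negative cells made up 13.6% of cycling and 6.59% of other yolk sac cells, and among C1q-positive cells alone the difference was −0.61 (edgeR adjusted p = 0.0103). With cycling cells defined by at least 3 UMIs it was −1.58.

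In E12.5 brain 0 of 9 tested genes were called between cycling and other cells, where 5.00% of 3179 genes were, 3.02% as higher and 1.98% as lower. At an unadjusted p under 0.05, edgeR gave 4, and DESeq2 called 0. Gpx3 there had 689 ± 74.4 CPM in cycling cells, against 814 ± 29.0 CPM in the others (log2 −0.30, SE 0.12, edgeR adjusted p = 0.146, lower in 4 of 4 libraries). The difference between the 2 tissues in the cycling effect on Gpx3 was −0.69 (SE 0.20, unadjusted p = 0.000726 and adjusted p = 0.0956 by edgeR), which did not pass. Of 3967 genes, 0.353% passed that test. At E18.5 Txn1 was called of 8 tested genes, where 5.82% of 1582 genes were, 3.86% as higher and 1.96% as lower. It had 292 ± 72.5 CPM in cycling cells, against 159 ± 71.5 CPM in the others (log2 0.93, SE 0.28, edgeR adjusted p = 0.0202, higher in 5 of 6 libraries). This call held in 4 of 10 alternatives. It was lost with DESeq2, with no filter on low counts, with at least 3 cell-cycle UMIs and without E18.5 replicate 3, 5 or 6. With no filter on low counts the member called was Ltc4s instead (log2 −0.62, edgeR adjusted p = 0.00161).

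**Figure D3:**
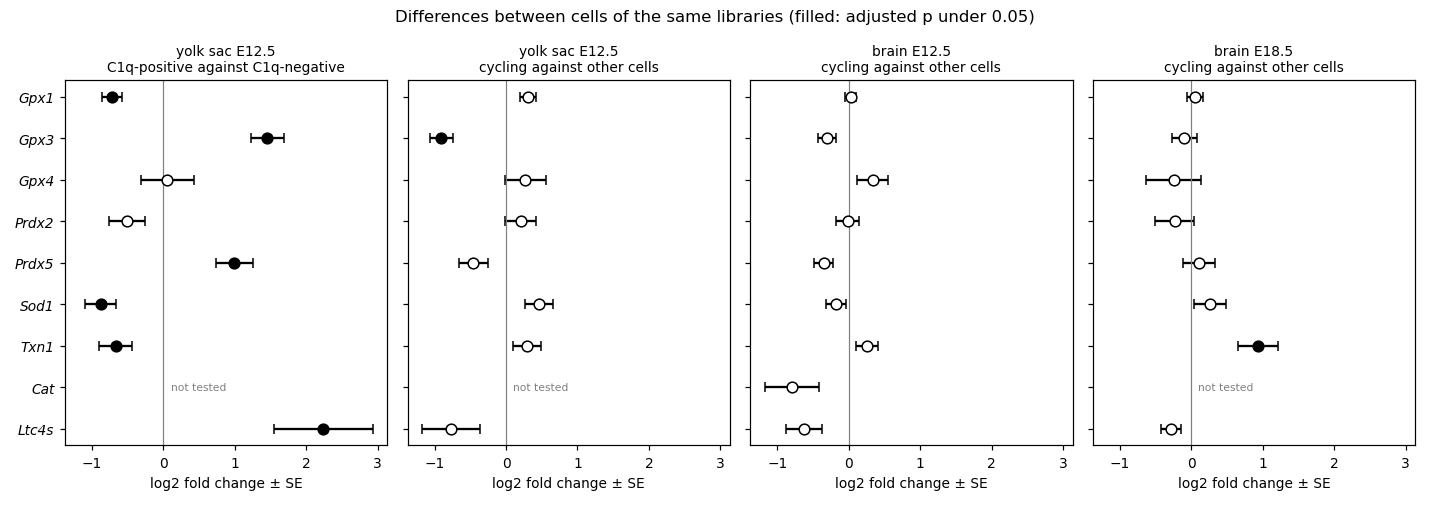
Log2 fold change (x axis, points, with bars of 1 SE) of the genes (y axis) between cells of the same libraries, C1q-positive against C1q-negative cells in yolk sac and cycling against other cells in yolk sac, E12.5 brain and E18.5 brain; filled points passed at an edgeR adjusted p under 0.05. Gpx3 is at 1.45 in the first panel and at −0.91 in the second.

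The genes around these enzymes were read from 8 lists of the same pathways that do not contain the 10 genes themselves. In adult against E12.5 brain, where 17.8% of all genes were called as higher and 20.7% as lower with a median of −0.07, 9 of 14 tested genes of the thioredoxin and peroxiredoxin system fell and 1 rose, with a median of −1.09. In the glutathione system 5 of 11 fell and 1 rose, and of the NRF2 pathway and NADPH supply 7 of 12 fell and 1 rose, with medians of −0.81 and −0.86. Of superoxide handling 2 of 4 fell, and of the remaining selenoproteins 3 of 10 fell and 1 rose. Of leukotriene and prostaglandin synthesis 3 of 9 genes rose, with a median of 0.23. Of the NADPH oxidase 1 of 6 fell, and of the peroxisome list 2 of 11 fell and 1 rose, shares near or below those of all genes. The lists were not tested against each other.

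By the rule for naming, 64 calls of 35 genes over the 4 comparisons were singled out, and 29 calls of 18 genes held under every alternative run. The 18 genes are named here, with values from comparisons in which their calls held, a restriction made after seeing the data. Txnip, an inhibitor that binds thioredoxin, had 1152 ± 96.5 CPM in adult brain and 733 ± 111 CPM at E18.5, against 252 ± 89.9 CPM in E12.5 brain (log2 2.19 and 1.51), while Txn1 fell. Pgd, of the pentose phosphate pathway that supplies NADPH, had 175 ± 65.4 CPM in adult brain and 339 ± 44.6 CPM at E18.5, against 603 ± 34.3 CPM in E12.5 brain (log2 −1.76 and −0.84). In the same pathway G6pdx, which catalyses its first step, had 26.2 ± 26.1 CPM in adult brain, against 131 ± 67.0 CPM in E12.5 brain (log2 −2.26), and the transaldolase Taldo1 had 494 ± 82.0 CPM at E18.5, against 985 ± 109 CPM in E12.5 brain (edgeR adjusted p = 3.93e-06). Sqstm1, an autophagy adaptor that binds the NRF2 inhibitor KEAP1, was higher, with 465 ± 42.6 CPM in adult brain, against 187 ± 32.5 CPM at E18.5 (log2 1.33). Of the thioredoxin-like proteins, the cytosolic Txndc17 had 55.8 ± 41.6 CPM in adult brain, against 153 ± 33.1 CPM at E18.5 and 203 ± 29.8 CPM in E12.5 brain (log2 −1.49 and −1.90). Txndc5, of the endoplasmic reticulum, had 36.2 ± 33.5 CPM in adult brain, against 148 ± 35.7 CPM at E18.5 (log2 −2.07). Atox1, a copper chaperone, had 227 ± 68.2 CPM in adult brain, against 577 ± 138 CPM in E12.5 brain (log2 −1.30). Rac2, a GTPase that activates the phagocyte oxidase, had 374 ± 87.6 CPM in adult brain, against 1160 ± 73.9 CPM in E12.5 brain (log2 −1.62). Ncf4, a cytosolic subunit of the same oxidase, was higher in the adult step, with 187 ± 40.4 CPM in adult brain, against 91.7 ± 19.1 CPM at E18.5 (log2 1.05). In that step 2 of 6 tested oxidase genes rose, Ncf4 and Ncf1 (0.84, passing in 13 of 20 alternatives), and Rac2 fell (−0.69, passing in 18 of 20), where 10.3% of all genes were called as higher and 11.2% as lower. At E18.5 against E12.5 brain 0 of 6 had risen and 3 had fallen, where 11.1% and 13.4% of all genes were so called. The 3 were Ncf4 (−0.93, passing in 18 of 19 alternatives), Ncf1 (−0.93, 18 of 20) and Rac2 (−0.93, 19 of 20).

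Sepp1, which encodes the selenium carrier selenoprotein P, had 5507 ± 1481 CPM in yolk sac, against 1644 ± 71.1 CPM in E12.5 brain (log2 1.78), and stood at 5316 ± 273 CPM at E18.5 and 4582 ± 664 CPM in adult brain (log2 1.69 and 1.50 against E12.5 brain). Gpx3, another secreted selenoprotein, was higher in yolk sac as well, but lower in adult brain. Among the other selenoproteins, Sepw1 had 18.2 ± 23.0 CPM in adult brain, against 117 ± 26.1 CPM at E18.5 and 124 ± 28.7 CPM in E12.5 brain (log2 −2.55 and −2.60). Sepn1, of the endoplasmic reticulum, had 12.1 ± 11.1 CPM in adult brain, against 85.2 ± 15.8 CPM at E18.5 (log2 −2.85). Sepx1, a methionine sulfoxide reductase, had 42.4 ± 13.7 CPM at E18.5, against 160 ± 24.5 CPM in E12.5 brain (log2 −1.89). Hmox1, heme oxygenase and a known NRF2 target, had 451 ± 128 CPM in yolk sac, against 138 ± 50.6 CPM in E12.5 brain (log2 1.75), and 26.8 ± 12.0 CPM in adult brain (log2 −2.26 against E12.5 brain). Beside Ltc4s, Tbxas1, thromboxane synthase, had 497 ± 172 CPM in adult brain and 316 ± 50.9 CPM at E18.5, against 125 ± 38.2 CPM in E12.5 brain (log2 2.06 and 1.36). Hpgd, which degrades prostaglandins, had 600 ± 159 CPM in adult brain, against 235 ± 25.7 CPM in E12.5 brain (log2 1.37). Ptgs1, the constitutive cyclooxygenase, had 46.8 ± 16.4 CPM in yolk sac, against 338 ± 151 CPM in E12.5 brain (log2 −2.81).

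**Figure D4:**
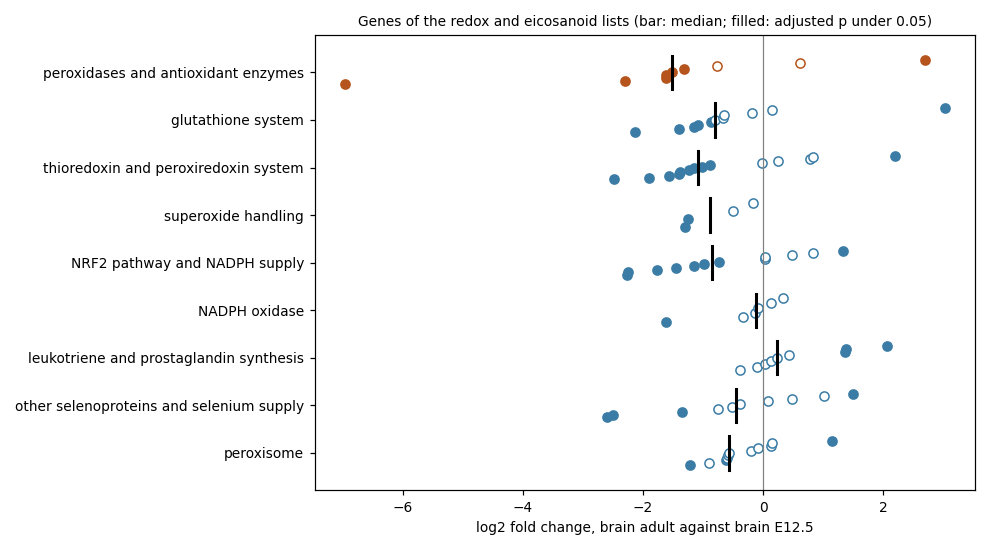
Log2 fold change of adult against E12.5 brain (x axis) for the tested members of the 10 genes (top row, orange) and of 8 lists of related genes (blue), each list in its own row; each point is a gene, filled where edgeR's adjusted p was under 0.05, and black bars are medians. The median is −1.51 in the top row, −1.09 in the thioredoxin and peroxiredoxin row and 0.23 in the leukotriene and prostaglandin row.

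Over the 18 libraries, the 2 genes of 1665 candidates whose log2 CPM was most like each member's were found by Pearson's r, a description in which the libraries share stage, depth and batch. Candidates were rows with a single symbol above a minimum mean CPM. Ribosomal, mitochondrial, histone, hemoglobin, predicted and numbered genes were left out by rule, so the genes named are not the nearest of all genes. Sh3bgrl3 (r = 0.98) and Ybx1 (0.97) were most like Gpx1. Eef1b2 (0.97) and Apoe (0.96), the lipoprotein gene, were most like Gpx3. Ftl1 and Atp5e (0.95 each) were most like Prdx2, and Atp5e (0.97) and Cox8a (0.96), subunits of mitochondrial energy metabolism, most like Sod1. Gsn and Fam96a (0.92 each) were most like Prdx5, Rbm8a (0.94) and Ifi30 (0.93) most like Txn1, and Higd2a (0.86) and Top1 (0.80) most like Gpx4. Timp2 (0.77) and Dusp6 (0.76) were most like Cat. Those most like Ltc4s were C1qb (0.97) and C1qc (0.96), subunits of complement C1q. Among the members themselves Gpx1 and Sod1 were alike (0.95), and Prdx5 and Ltc4s ran opposite (−0.83).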

How the data were processed

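The submitters measured polyadenylated RNA of single sorted cells by MARS-seq. What the authors deposited are counts of UMIs, as whole numbers without normalization, in 1 table for all wells. Per the submitters' processing notes, bcl2fastq 2.15.0.4 and build mm9 were used. For alignment, annotation and UMI collapsing the tool is not given in the sources used here. A maximum of 256 UMIs per gene and well was seen, which the 10 genes did not reach.

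Wells with 1 sorted cell and at least 300 UMIs were kept, 3012 of 3420. Counts were summed per library, and libraries were grouped by tissue and stage as labelled. No doublet caller was run, because wells received 1 sorted cell. edgeR 4.0.16 (R 4.3.3; TMM scaling, its filter on low counts, robust quasi-likelihood test, Benjamini-Hochberg adjustment over all 4883 tested genes, threshold 0.05) was fitted to all 4 groups at once. Contrasts between cell classes used sums per class and library with library as a block. DESeq2 1.42.0, other scaling and filters, batch, plate, depth, cell subsets and left-out libraries were alternatives. A fold against a group of 1 to 3 counts is a ratio of counts with its exact interval. On simulated counts with 200 of 4664 genes changed 4-fold between E18.5 and E12.5 brain, 99.5% were recovered and 3.86% of calls were false. The changed genes were drawn from the better-counted ones, and the simulated libraries were independent, without plates or batches. These rates therefore do not carry over to smaller changes, low counts or libraries that share a plate.

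The members and lists were chosen with earlier results of these data known. All members are named, and per related list up to 3 called genes with the largest change, a single symbol and at least 50 CPM in the higher group. Near-identical copies of the members' last 300 bases were searched among GENCODE M21 transcripts, at 95% identity over 50 bases or more. Coordinates are those of the promoter table on GRCm38.p6 and are not converted to mm9.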

Additional observations from a re-analysis of the deposited data

Results flagged for a closer look

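In 40 groups of 4 to 6 libraries, 1 for each gene and stage, the highest or lowest library was set against its nearest neighbour, a rule by which chance alone singles out about 1 in 20 groups. Of these, 2 were singled out, both for Prdx1. In E18.5 replicate 1 it had 10.6 CPM, which is 2 UMIs, while the other E18.5 libraries had 0. In adult replicate 3 it had 20.8 CPM, again 2 UMIs, with 0 in the other adult libraries. No other gene of the 10 was singled out.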

How the results depend on the processing

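No called value changed sign in the alternatives run. No paired analysis was possible because the labels give no replicate numbers that groups share; numbers follow accession order. With sequencing batch as a covariate the count of called members in E18.5 against E12.5 brain was 3. Called genes numbered 332 there and 910 in adult against E12.5 brain, against 1195 and 1883 without it. In both comparisons the batch offset rests on the yolk sac libraries alone. With counts summed per plate, which leaves fewer samples, 0 members were called in yolk sac against E12.5 brain, and called genes numbered 493, 660 and 698 in yolk sac against E12.5 brain, E18.5 against E12.5 brain and adult against E18.5 brain, against 774, 1195 and 1050. With cells thinned to 300 UMIs, which leaves fewer counts, called genes numbered 270, 448, 431 and 714 in the 4 comparisons. Cycling cells defined by 3 UMIs gave 1 called member in E12.5 brain (Prdx5, −0.60) and 0 at E18.5, and DESeq2 also gave 0 at E18.5. With no filter on low counts 2 members were called for cycling yolk sac cells (Prdx5 added) and 3 for the C1q classes. The causes of these last changes were not tested.

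Leaving out 1 library at a time gave 1 to 2 called members in yolk sac against E12.5 brain, 5 to 7 in E18.5 against E12.5 brain, 4 to 6 in adult against E18.5 brain and 7 to 8 in adult against E12.5 brain, with 625 to 727, 930 to 1118, 876 to 1033 and 1710 to 1797 called genes. For cycling cells the counts were 0 to 0 in E12.5 brain, 1 to 2 in yolk sac and 0 to 1 at E18.5, and for the C1q classes 2 to 5. The second member in yolk sac without replicate 4 was Sod1 (0.68). Alternatives that left out the marker-rich cells, or kept C1q-positive cells alone, were chosen after seeing the data. The adult libraries are the shallowest, and there 3 counts over the group are 8.30 CPM, above the 5.26 CPM mean of Gpx3. Libraries of 1 group may share animals, and leaving out 1 library keeps the other library of its plate. Intervals and floors cover counting error only.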
